A study of Mus musculus with 8 samples.

Results

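The autophagy and lysosome genes are 45 genes from a named list. They were not picked by a rule on the measured values, but earlier results of these data were known. They fall into 28 genes of autophagy machinery and receptors, 3 MiT transcription factors, and 14 lysosomal genes with the proton pump. Of the 45 genes, 44 were measured. Optn, an autophagy receptor, has no probe set named in the probe table used here. Of the 44, 43 lay above the filter on low signal, against 8908 of all 18193 measured genes. Calcoco1 was the member under it, with a mean log2 signal of 4.37.

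RNA of RAW 264.7 cells, a mouse macrophage line, was measured on 8 Affymetrix mouse genome arrays, with 2 arrays for each group. LPS+M cells received menthol for 1 h and then LPS, a bacterial cell wall component that activates macrophages, at 100 ng/ml for 6 h. M cells received menthol for 1 h, LPS cells received the same LPS for 6 h without menthol, and control cells received neither. The labels give neither a dose of menthol nor a harvest time for the M and control groups. Time after menthol therefore cannot be told apart from LPS in the comparison of LPS+M to M or in the interaction. In LPS compared to control, time in culture cannot be told apart from LPS. The labels call the arrays biological replicates without naming separate cultures, so each p-value covers no more than the spread among these arrays, part or all of which may be technical. Array medians lay between 2.99 and 3.04 on the log2 scale, and the 2 arrays of a group correlated at 0.9988 to 0.9994 across genes. All 9 macrophage markers lay above the filter of 4.84 on all 8 arrays, and every measured marker of T cells, B cells, fibroblasts, epithelial, endothelial, mast and erythroid cells lay under it. In bulk RNA, fewer cells with a transcript and less of it per cell cannot be told apart.

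Autophagy encloses cytoplasmic cargo in a double membrane and delivers it to the lysosome for breakdown. The ULK1 kinase complex starts the process, the class III PI3-kinase complex marks the forming membrane with a lipid that WIPI proteins read, and a pair of ubiquitin-like conjugation systems attaches ATG8 proteins to the membrane. Receptors such as p62 tether ubiquitinated cargo to ATG8 proteins. Acid hydrolases in the lysosome, which the V-ATPase proton pump acidifies, degrade the content. The MiT transcription factors TFEB, TFE3 and MITF bind the CLEAR element, an E-box found near many lysosomal and autophagy genes. In macrophages the same pathway clears engulfed microbes and damaged organelles.

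The promoter windows of the members show where the CLEAR letters occur. RefSeq windows of GRCm38.p6, from 250 bases before to 50 bases after each start, were found for 37 of the 45 members. The 8 letters TCACGTGA, the core of the CLEAR element, occurred in 7 of the 37 (18.9%), against 1.12% of all 27025 genes with such a window. The element is known from lysosomal and autophagy genes, so a high share in this list was partly set in advance. The letters are shown here with 10 bases on either side, 5′ to 3′ along the strand of the gene, with the core in capitals.
Ctsd: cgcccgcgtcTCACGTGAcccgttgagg
Ctsa: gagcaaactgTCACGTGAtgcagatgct
Gla: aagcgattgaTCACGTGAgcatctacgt
Mcoln1: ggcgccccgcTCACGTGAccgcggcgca
Atp6v1a: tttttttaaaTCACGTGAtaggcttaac
Atp6v0d1: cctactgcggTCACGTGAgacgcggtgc
Atg3: gagagtcgagTCACGTGAggccttaggt
The Ctsd stretch lies at chr7:142387909-142387936 on the minus strand, and its core begins 99 bases before the start. The Ctsa stretch at chr2:164833750-164833777 on the plus strand begins its core 13 bases before the start, and the window holds the core again just after the start. The Gla stretch at chrX:134601216-134601243 on the minus strand has its core 228 bases before the start, with another copy 195 bases before it. The Mcoln1 core lies 46 bases before the start (chr8:3500463-3500490, plus strand). The Atp6v1a core lies 132 bases before the start (chr16:44139374-44139401, minus strand), and the Atp6v0d1 core 4 bases before it (chr8:105566051-105566078, minus strand). The Atg3 core lies 72 bases before the start (chr16:45158747-45158774, plus strand). Of these 7 genes, 6 encode lysosomal proteins or pump subunits, and Atg3 encodes the E2-like enzyme of ATG8 conjugation.

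**Figure D1:**
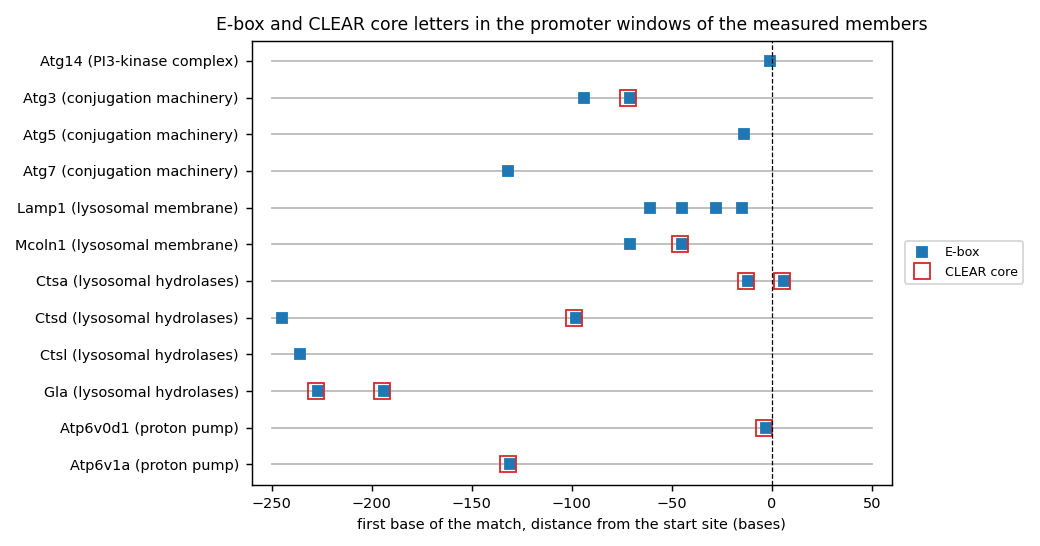
Positions of the E-box (filled squares) and CLEAR core (open squares) in the promoter windows of the 12 members with a match, as distance from the start site in bases. Lamp1 has 4 E-boxes and no CLEAR core, and 8 of the 12 genes are lysosomal or pump genes.

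The shorter E-box CACGTG, which every CLEAR core contains, occurred in 12 of the 37 members (32.4%) and in 8.09% of all genes. On both strands, TGACNNNGC, the core of the antioxidant response element, occurred in 9 members (24.3%, against 14% of all genes). TGATGNAA, the core of the composite element of CHOP and ATF4, occurred in 2 (5.41%, against 4.51%). None of the windows of the 7 members called at 1.5-fold in any comparison below held CACGTG, while Atg5 and Atp6v1a, which passed an adjusted p of 0.05 under 1.5-fold, do hold it. Mitf was the only one of those 7 with a match to any of these motifs, TGACNNNGC. The windows of Sqstm1 (chr11:50210771-50211070, minus strand) and Wipi2 (chr5:142629334-142629633, plus strand), the members with the largest changes, are printed whole because they hold none of the motifs.
Sqstm1: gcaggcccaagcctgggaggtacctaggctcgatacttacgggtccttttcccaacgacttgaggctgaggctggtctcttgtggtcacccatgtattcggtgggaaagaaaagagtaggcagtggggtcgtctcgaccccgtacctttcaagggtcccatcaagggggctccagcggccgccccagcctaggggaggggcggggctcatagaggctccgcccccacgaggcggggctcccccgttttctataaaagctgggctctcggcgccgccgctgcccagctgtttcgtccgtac
Wipi2: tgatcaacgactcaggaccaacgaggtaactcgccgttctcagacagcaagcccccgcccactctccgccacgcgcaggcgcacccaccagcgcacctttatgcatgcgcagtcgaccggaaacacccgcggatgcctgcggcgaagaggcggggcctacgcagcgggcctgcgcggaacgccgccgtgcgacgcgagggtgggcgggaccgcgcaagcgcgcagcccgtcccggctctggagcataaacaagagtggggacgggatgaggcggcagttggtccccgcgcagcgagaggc
A match of letters describes the sequence only, and binding was not measured here.

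Among the 43 tested members, 7 were called in at least 1 of 5 comparisons (16.3%), against 1108 of all 8908 tested genes (12.4%). A gene was called at a limma adjusted p under 0.05 over all 8908 tested genes together with a fold change of at least 1.5, or 0.585 on the log2 scale. Sqstm1, Wipi2 and Ulk1 were called higher with menthol both without and with LPS, Gabarapl1 only without LPS and Atg2a only with it. Mitf and Tfeb were called lower in LPS+M compared to LPS and not in M compared to control. Sqstm1 was also called higher with LPS. With the brightest probe set of each gene, none of the 14 lysosomal and pump genes was called in any comparison. Members had 30 other probe sets above the filter, in 20 genes, and 3 of these passed both thresholds in some comparison in a fit over all probe sets, those of Gabarapl1, Gla and Rb1cc1. All values are deposited log2 GC-RMA signals, differences are log2 fold changes, and values after ± are standard errors from the fit of all 8 arrays. With 2 arrays a group, the exact permutation test has a smallest two-sided p of 0.333 and was not used. Comparisons with a group in common share its arrays, while those of menthol without and with LPS share none, nor do those of LPS without and with menthol.

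**Figure D2:**
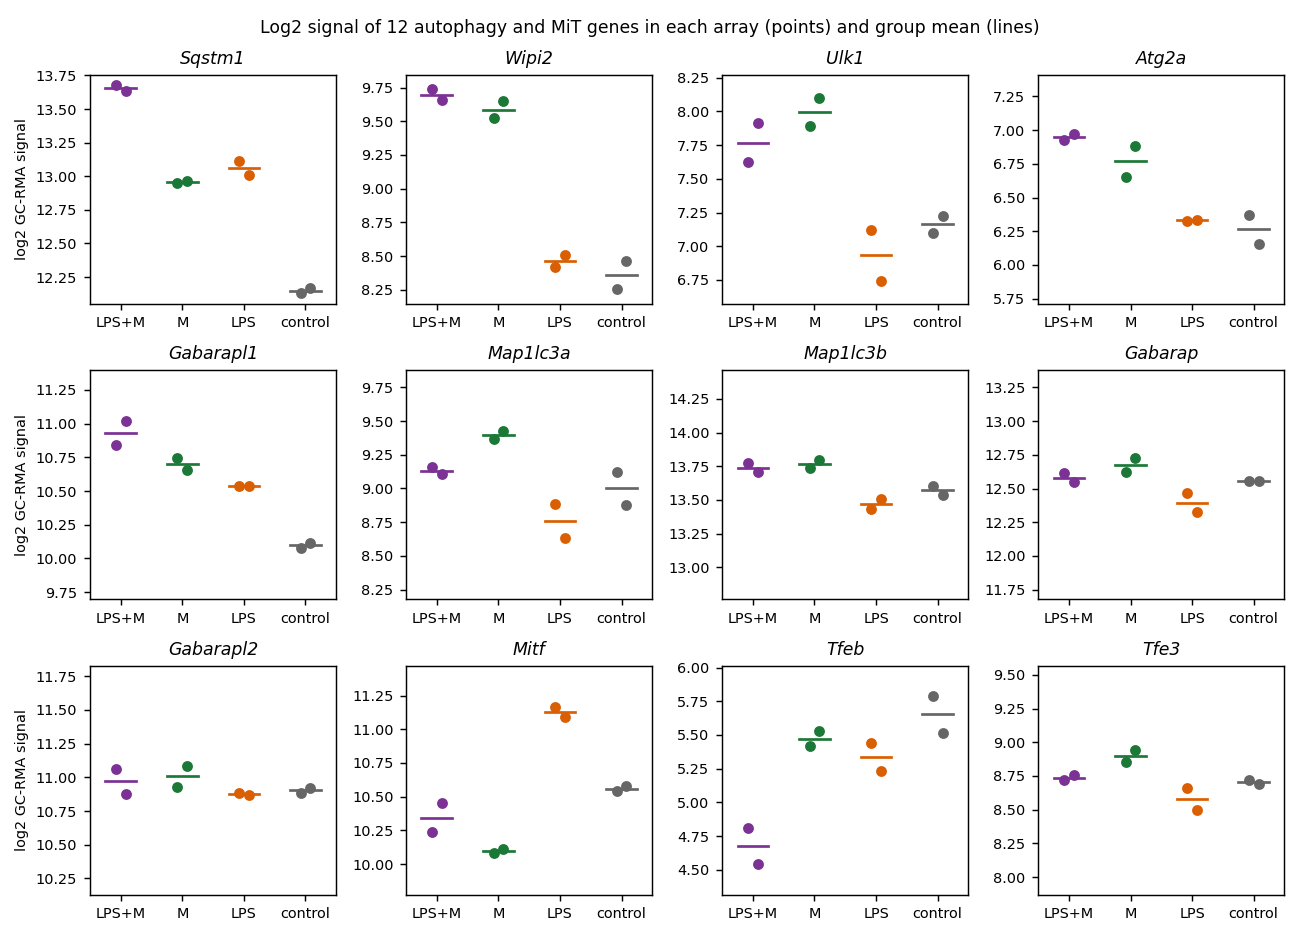
Log2 signal of 12 genes in each array (points) and the mean of each group (lines), with LPS+M, M, LPS and control from left to right and axes that do not start at 0. Sqstm1 was highest in LPS+M and lowest in control, while Wipi2, Ulk1 and Atg2a were high in both menthol groups.

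Sqstm1 encodes p62, the receptor that links ubiquitinated cargo to ATG8 proteins. Its signal was 13.68 and 13.63 in LPS+M, 12.95 and 12.96 in M, 13.12 and 13.01 in LPS, and 12.13 and 12.17 in control cells. The LPS+M arrays were highest, the control arrays lowest, and M and LPS lay between them, without overlap among the 4 groups. Relative to control cells, Sqstm1 rose by 0.81 ± 0.06 in M (1.75-fold, adjusted p = 0.000357) and by 0.91 ± 0.06 in LPS (1.88-fold, adjusted p = 6.13e-05), both by limma. It also rose by 0.59 ± 0.06 in LPS+M compared to LPS (adjusted p = 0.000669) and by 0.70 ± 0.06 in LPS+M compared to M (adjusted p = 0.000355). It was the only member called in all 4 of these comparisons. The rise over LPS lay just above 1.5-fold, and it was no longer called without LPS replicate 2 (0.54), without LPS+M replicate 1 (0.57), after quantile normalization (0.58) or with each array set to the same median of the tested genes (0.56). Averaging with its other probe set, which lay under the filter, lowered the differences to 0.57 in LPS compared to control, 0.42 in LPS+M compared to LPS and 0.17 in LPS+M compared to M, none of them called.

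Wipi2 encodes a lipid-binding protein that recruits the ATG16L1 complex to the forming membrane. Its signal was 9.74 and 9.66 in LPS+M, 9.52 and 9.65 in M, 8.42 and 8.51 in LPS, and 8.26 and 8.47 in control cells. All 4 arrays with menthol lay more than 1 log2 unit above all 4 without it. This was the largest change of any member, with a rise of 1.22 ± 0.09 in M compared to control (2.34-fold, adjusted p = 0.000229) and of 1.23 ± 0.09 in LPS+M compared to LPS (2.35-fold, adjusted p = 0.000129). LPS left Wipi2 at a difference of 0.10 from control (adjusted p = 0.459). Another, dimmer Wipi2 probe set with a mean of 6.84 gave only 0.21 in M compared to control and 0.11 in LPS+M compared to LPS. The mean over all Wipi2 probe sets moved by 0.49 and 0.45 in those comparisons, which is under 1.5-fold.

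Ulk1 encodes the kinase that starts autophagy. Its signal was 7.62 and 7.91 in LPS+M, 7.89 and 8.10 in M, 7.12 and 6.75 in LPS, and 7.10 and 7.22 in control cells. The arrays with menthol again lay above those without it, but arrays of 1 group were up to 0.37 apart. Ulk1 rose by 0.83 ± 0.15 with menthol alone (M compared to control, adjusted p = 0.00679) and by 0.84 ± 0.15 with menthol before LPS (LPS+M compared to LPS, adjusted p = 0.00492). The call in M missed the threshold without control replicate 1 (adjusted p = 0.0504) and without M replicate 2 (adjusted p = 0.0512). The mean over both Ulk1 probe sets, of which the other had a mean of only 2.39, moved by 0.41 in M compared to control and 0.42 in LPS+M compared to LPS.

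Ulk2 encodes a related kinase. It lay 0.27 lower in M and 0.47 lower in LPS than in control cells (adjusted p = 0.0324 and 0.00342), both under 1.5-fold, and its difference between LPS+M and LPS was 0.02. Another Ulk2 probe set of similar brightness (mean 7.88) gave 0.12 in M and -0.13 in LPS against control, so the sign in M differed between them. Its adjusted p-values were 0.745 and 0.672 in the fit over all probe sets. A dimmer Ulk2 probe set (mean 6.17) gave -0.35 in M and -0.31 in LPS against control. It gave -0.28 in LPS+M compared to LPS, and none of its differences passed an adjusted p of 0.05. Atg13, the adaptor of the kinase complex, was 0.53 higher in M than in control, 0.35 higher in LPS than in control and 0.37 higher in LPS+M than in LPS, with adjusted p-values of 0.00658, 0.032 and 0.0214 and under 1.5-fold each time. Without control replicate 1, Atg13 passed 1.5-fold in M (0.66). Rb1cc1, which encodes the scaffold FIP200, did not pass an adjusted p of 0.05 in these comparisons with its brightest probe set. A dimmer Rb1cc1 probe set (mean 7.41) gave 0.61 in LPS+M compared to LPS, past both thresholds (adjusted p = 0.0348 in the fit over all probe sets), and 0.48 in M compared to control (adjusted p = 0.0822).

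Atg2a encodes a lipid transfer protein that feeds the growing membrane. Its signal was 6.93 and 6.97 in LPS+M, 6.65 and 6.88 in M, 6.33 and 6.33 in LPS, and 6.37 and 6.15 in control cells. The menthol arrays did not overlap with those without menthol. Atg2a rose by 0.62 ± 0.10 in LPS+M compared to LPS (adjusted p = 0.00354) and lay 0.51 ± 0.10 higher in M than in control (adjusted p = 0.0102), which is under 1.5-fold in M. Leaving out control replicate 1 or M replicate 1 brought it over that line in M (0.62 both times). After quantile normalization the difference between LPS+M and LPS (0.58) fell just short of it.

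Atg9a, the membrane scramblase that works with ATG2, was 0.49 higher in M than in control and 0.29 higher in LPS+M than in LPS (adjusted p = 0.00565 and 0.0301), under 1.5-fold. Wipi1, the relative of Wipi2, was 0.37 lower in LPS than in control (adjusted p = 0.0146) and 0.44 higher in LPS+M than in LPS (adjusted p = 0.0062), also under 1.5-fold. These comparisons share the LPS arrays. The Wipi1 difference between M and control was 0.20 and did not pass the adjusted p.

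The ATG8 genes encode the proteins that are coupled to the autophagosome membrane. Gabarapl1 was 10.84 and 11.02 in LPS+M, 10.74 and 10.65 in M, 10.54 and 10.54 in LPS, and 10.08 and 10.12 in control cells. Every treated array lay above both control arrays. Gabarapl1 rose by 0.60 ± 0.08 in M compared to control (1.52-fold, adjusted p = 0.00203), was 0.44 ± 0.08 higher in LPS than in control (adjusted p = 0.00513) and 0.39 ± 0.08 higher in LPS+M than in LPS (adjusted p = 0.00771). The call in M fell under 1.5-fold without control replicate 1 (0.58), without M replicate 1 (0.56) and with each array set to the same median of the tested genes (0.55). Its other probe set gave 0.59 in M compared to control and 0.56 in LPS+M compared to LPS.

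Map1lc3a was 9.16 and 9.11 in LPS+M, 9.37 and 9.42 in M, 8.88 and 8.63 in LPS, and 9.12 and 8.88 in control cells. Map1lc3b, the LC3 isoform most used as an autophagosome marker, was 13.77 and 13.71 in LPS+M, 13.73 and 13.79 in M, 13.43 and 13.51 in LPS, and 13.61 and 13.53 in control cells. Both were higher with menthol, by less than 1.5-fold. For Map1lc3a the difference was 0.40 ± 0.11 between M and control and 0.37 ± 0.11 between LPS+M and LPS (adjusted p = 0.0328 and 0.0325). For Map1lc3b it was 0.19 ± 0.07 (adjusted p = 0.0728) and 0.27 ± 0.07 (adjusted p = 0.0195). A dimmer Map1lc3a probe set gave 0.88 in LPS+M compared to LPS, and a Map1lc3b probe set with a mean of 12.74 gave -0.13 there, so the probe sets of these genes do not give 1 value. Yet another Map1lc3b probe set (mean 9.56) was 0.51 lower in LPS than in control (adjusted p = 0.0046), where the brightest set differed by -0.10.

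Gabarap was 12.61 and 12.55 in LPS+M, 12.63 and 12.73 in M, 12.47 and 12.33 in LPS, and 12.56 and 12.56 in control cells. Gabarapl2 was 11.06 and 10.88 in LPS+M, 10.93 and 11.09 in M, 10.89 and 10.87 in LPS, and 10.89 and 10.92 in control cells. Neither gene passed an adjusted p of 0.05 in any of the comparisons, and the largest difference of Gabarap was 0.18, in LPS+M compared to LPS (adjusted p = 0.0938).

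Nbr1, which like p62 binds ubiquitin and ATG8 proteins, was 0.36 higher in M than in control and 0.31 higher in LPS+M than in LPS (adjusted p = 0.0114 and 0.0164). Tax1bp1, a receptor that also restrains NF-kB signalling, was 0.37 and 0.23 higher in those comparisons (adjusted p = 0.00428 and 0.0198). All of these lay under 1.5-fold. Dimmer probe sets differed from them. An Nbr1 probe set with a mean of 5.42 gave 0.84 in M compared to control (adjusted p = 0.057), and a Tax1bp1 probe set with a mean of 10.22 gave -0.04 in LPS+M compared to LPS. Calcoco1, taken from the fit without the filter, differed by 0.68 ± 0.22 between M and control (1.61-fold, adjusted p = 0.15, not called), and its LPS+M arrays were 0.70 apart.

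In the PI3-kinase complex, which makes the lipid read by WIPI proteins, no gene was called. Uvrag, a subunit linked to later steps of autophagy and to endocytic traffic, had 10.61 and 10.73 in LPS+M, 11.19 and 11.23 in M, 10.37 and 10.32 in LPS, and 10.79 and 10.76 in control cells. It was high with menthol and low with LPS. The differences were 0.43 between M and control, -0.43 between LPS and control, 0.33 between LPS+M and LPS and -0.53 between LPS+M and M, with adjusted p-values of 0.004, 0.00323, 0.00896 and 0.00159, all under 1.5-fold. The difference from M passed that fold without LPS+M replicate 2 (-0.59). Becn1, Pik3c3 and Atg14 did not pass an adjusted p of 0.05 in any comparison.

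Of the 6 genes of the conjugation machinery, none was called. Atg12, the ubiquitin-like protein joined to ATG5, was 0.53 higher in M than in control (adjusted p = 0.00232) and 0.36 higher in LPS+M than in LPS (adjusted p = 0.00725). Without control replicate 2 the first of these passed 1.5-fold (0.60). Another Atg12 probe set (mean 7.18) gave only 0.25 and 0.22 in these comparisons, with adjusted p-values of 0.355 and 0.4 in the limma fit over all probe sets. Atg5 was 0.40 higher in LPS+M than in LPS (adjusted p = 0.0301), but another Atg5 probe set of similar brightness gave -0.19. Atg3, Atg4b, Atg7 and Atg16l1 did not pass an adjusted p of 0.05 in any comparison.

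Of the 3 MiT factors, 2 were called, both lower in LPS+M compared to LPS and neither in M compared to control. Mitf was 10.23 and 10.45 in LPS+M, 10.08 and 10.11 in M, 11.16 and 11.09 in LPS, and 10.54 and 10.58 in control cells. LPS cells were highest, and both menthol groups lay under the control. Mitf fell by 0.78 ± 0.08 in LPS+M compared to LPS (1.72-fold lower, adjusted p = 0.000587). It was 0.57 ± 0.08 higher in LPS than in control (adjusted p = 0.0023), just under 1.5-fold, and was called there without LPS replicate 2 (0.60). In M compared to control it was -0.46 ± 0.08 (adjusted p = 0.00672), under 1.5-fold. A dimmer Mitf probe set with a mean of 5.76 gave -0.17 in M compared to control and -0.13 in LPS+M compared to LPS, and in LPS+M compared to LPS the mean over both gave -0.46, no longer called.

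Tfeb, the factor best known for driving lysosomal and autophagy genes, was dim, at 4.81 and 4.54 in LPS+M, 5.42 and 5.53 in M, 5.44 and 5.23 in LPS, and 5.79 and 5.51 in control cells. LPS+M cells were lowest, and their mean of 4.67 lay under the filter of 4.84, the only group mean among the 43 tested members to do so. Tfeb fell by 0.66 ± 0.13 in LPS+M compared to LPS (1.58-fold lower, adjusted p = 0.00754) and by 0.80 ± 0.13 in LPS+M compared to M (1.74-fold lower, adjusted p = 0.00544). In M compared to control Tfeb differed by -0.18 (adjusted p = 0.354), with overlapping arrays. The fall compared to LPS was under 1.5-fold without LPS replicate 1 (-0.56) and without LPS+M replicate 2 (-0.53). Tfe3 was 8.72 and 8.76 in LPS+M, 8.85 and 8.94 in M, 8.66 and 8.49 in LPS, and 8.72 and 8.69 in control cells, and no comparison of it passed the adjusted p. MiT factors are regulated in large part by where the protein sits in the cell, which RNA does not show.

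The 14 lysosomal and pump genes included the brightest signals of the list, with means over all arrays of 8.86 (Mcoln1, a lysosomal calcium channel) to 15.56 (Ctsz, a cathepsin). In M compared to control their differences lay between -0.03 and 0.11, with a median of 0.03, and in LPS+M compared to LPS between -0.11 and 0.23, with a median of 0.01. The medians over all tested genes were 0.02 and 0.03. The 95% intervals of the 14 differences lay between -0.18 and 0.30 in M compared to control and between -0.26 and 0.46 in LPS+M compared to LPS, so a change of 1.5-fold lies outside every one of them for these probe sets. A dimmer probe set of Gla, which encodes alpha-galactosidase (mean 7.42), gave -0.65 in LPS compared to control (adjusted p = 0.0357 in the fit over all probe sets), against -0.11 for the brightest set. None of the 14 had an unadjusted p under 0.05 in these comparisons. By limma, 1 was higher and 2 were lower at that p in LPS compared to control, and again 1 and 2 in LPS+M compared to M. The share of all genes at that p was not counted.

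The membrane glycoproteins Lamp1 and Lamp2 and the proteases Ctsb, Ctsd and Ctsl, which are abundant in macrophages, did not pass an adjusted p of 0.05 in any comparison. Atp6v1h, a regulatory subunit, was 11.51 and 11.45 in LPS+M, 11.17 and 11.26 in M, 11.63 and 11.56 in LPS, and 11.26 and 11.24 in control cells. It was high in both groups with LPS, by 0.34 in LPS compared to control and 0.27 in LPS+M compared to M (adjusted p = 0.00717 and 0.0289). Atp6v1a, the catalytic subunit, was 0.25 lower in LPS+M than in M (adjusted p = 0.0396). All 3 values lay under 1.5-fold.

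**Figure D3:**
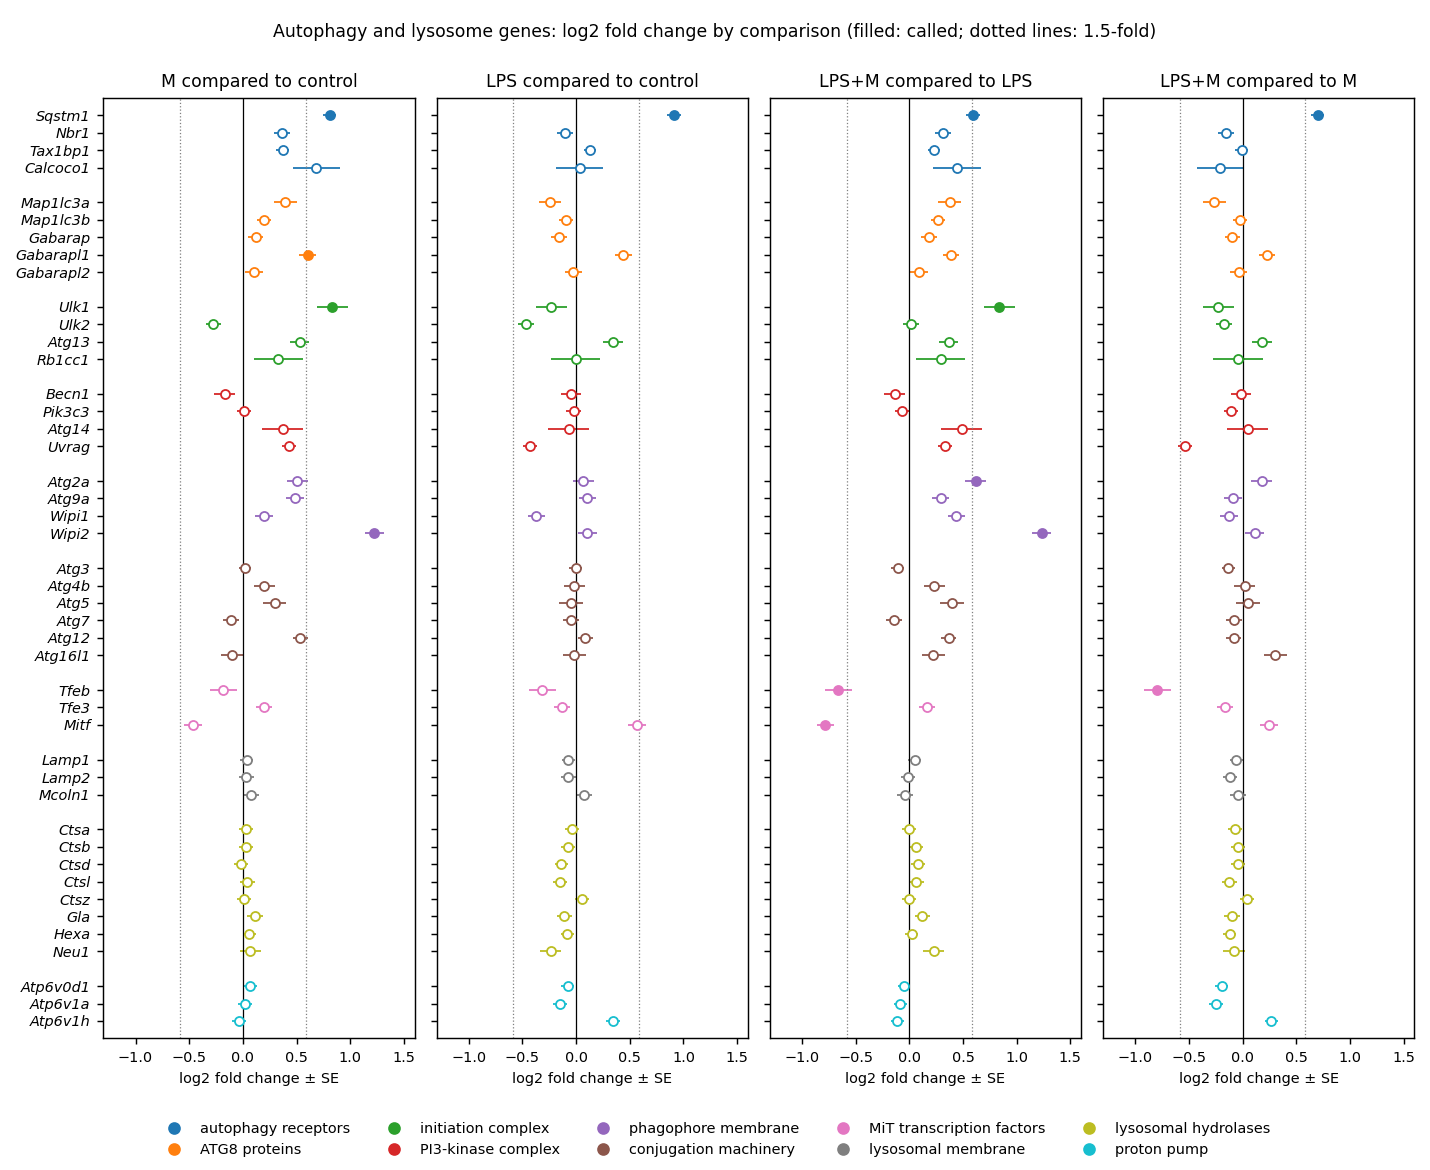
Log2 fold change ± SE of the 44 measured members in 4 comparisons, grouped by role, with filled points for called genes and dotted lines at 1.5-fold. Lysosomal and pump genes lie between -0.03 and 0.11 in M compared to control, while Wipi2 reaches 1.22 and 1.23 in the panels of menthol.

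Menthol without LPS was tested in M compared to control, where 4 of 43 members were called higher and none lower, against 3.01% and 1.54% of all tested genes. Over all genes, 268 were called higher and 137 lower, and with each array set to the same median of the tested genes 213 and 186. At an adjusted p under 0.05 with no minimum of fold, 12 members were higher and 2 lower (27.9% and 4.65%), against 13.1% and 8.63% of all tested genes. All 12 were among the 26 tested genes of autophagy machinery and receptors (46.2%), and the members that were lower were Mitf and Ulk2. The median difference over the 26 tested autophagy genes was 0.35, against 0.02 over all tested genes.

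In LPS+M compared to LPS, 4 members were called higher and 2 lower, against 4.22% and 2.49% of all tested genes. At the adjusted p alone, 15 were higher and 2 lower (34.9% and 4.65%), against 17.3% and 11.4%. All 15 were again autophagy machinery or receptors (57.7% of 26), and the median over the 26 tested was 0.30, against 0.03 over all tested genes. The lysosomal and pump genes gave 0 of 14 in both directions at the adjusted p in both comparisons of menthol. No test of the difference between the lists was made. Because the members were chosen with earlier results of these data known, these shares are no independent support for a rise of the pathway.

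With LPS compared to control, 1 member was called higher, Sqstm1, and none lower, against 3.17% and 2.96% of all tested genes. At the adjusted p alone 5 were higher and 3 lower, against 9.13% and 12.6%. The 5 were Sqstm1, Gabarapl1, Atg13, Mitf and Atp6v1h, and the 3 were Ulk2, Uvrag and Wipi1. The median over the members was -0.05, against -0.03 over all tested genes. In LPS+M compared to M, 1 member was called higher and 1 lower, against 2.39% and 1.77%, and at the adjusted p alone 2 were higher and 3 lower, against 6.54% and 7.69%. These shares were close to those of all genes.

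**Figure D4:**
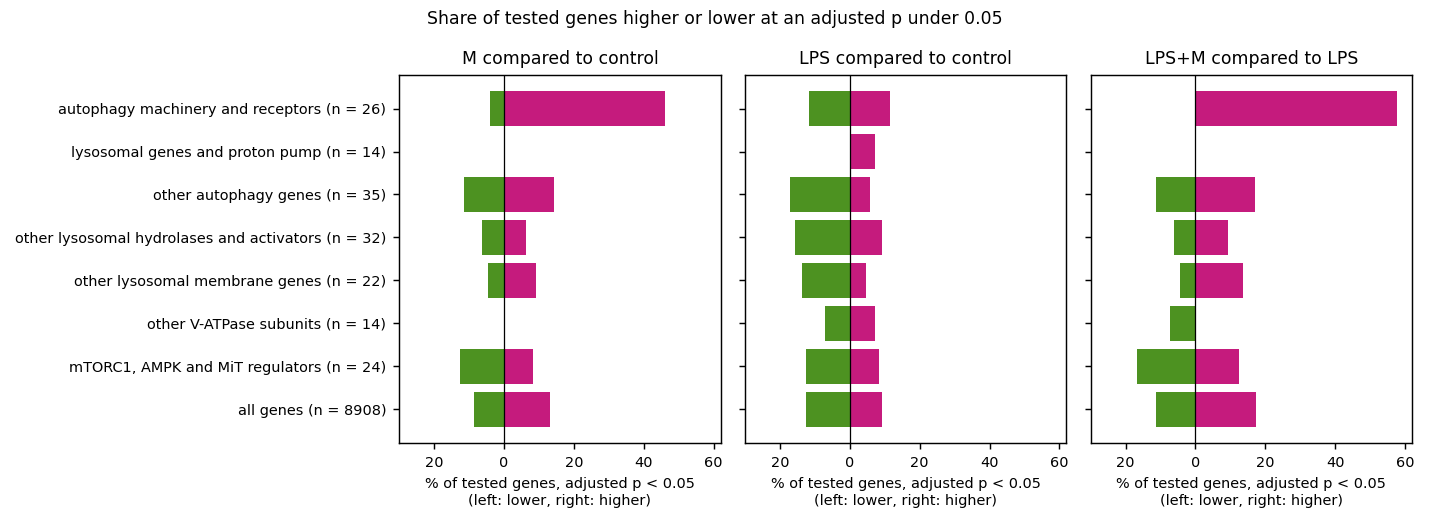
Share of tested genes with an adjusted p under 0.05, higher to the right and lower to the left, in 3 comparisons for 2 groups of members, 5 other lists and all 8908 genes. To the right, autophagy machinery and receptors reach 46.2% and 57.7% in the comparisons of menthol. Other autophagy genes reach 14.3% and 17.1%, close to the 13.1% and 17.3% of all genes.

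The differences with menthol could be set side by side without LPS (M compared to control) and with it (LPS+M compared to LPS), because these comparisons share no arrays. Time after menthol may differ between them. Across the 44 measured members the correlation of their log2 fold changes was 0.897, and across all 8908 tested genes it was 0.784. For the 27 autophagy genes it was 0.896 and for the 14 lysosomal and pump genes, whose differences were small, 0.443. These are correlations across genes, which are not independent replicates, and they describe these arrays only. Of the 27 autophagy genes, 21 were positive in both comparisons and 2 negative in both. Of all 8908 tested genes, 3949 were positive in both and 3099 negative in both, so agreement in sign was common among all genes.

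**Figure D5:**
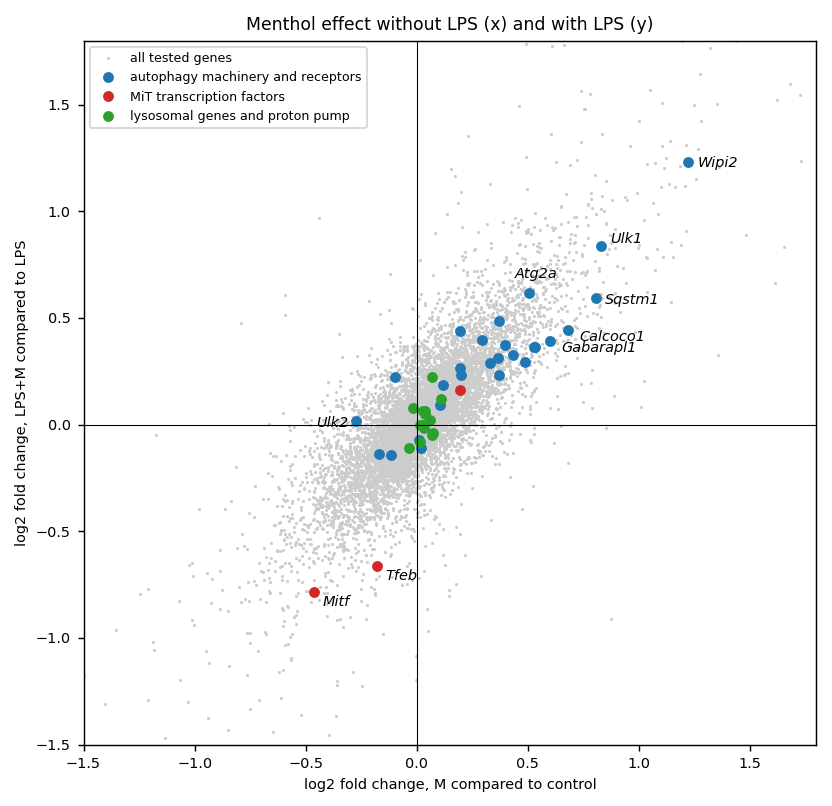
Log2 fold change in M compared to control (x) and in LPS+M compared to LPS (y) for the members (large points) and all tested genes (grey), of which 31 lie outside the plotted range of -1.5 to 1.8. Autophagy genes lie mostly in the upper right quadrant, with Wipi2 at 1.22 and 1.23, and Mitf and Tfeb lie in the lower left.

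The interaction of menthol and LPS asked whether the difference with menthol was another in the presence of LPS. As the harvest time of M and control cells is not given, time after menthol cannot be told apart from LPS here. None of the 43 members was called, against 0.236% of all tested genes. At an unadjusted limma p under 0.05 there were 4 members, Sqstm1, Ulk2, Tfeb and Mitf. The share of all tested genes at that p was not counted, and the 0.236% belongs to the stricter threshold. The smallest adjusted p was 0.364 (Ulk2). The 4 members were picked by that unadjusted p, so their intervals below exclude 0 by this choice. For Ulk2 the interaction was 0.29 with a 95% interval of 0.05 to 0.53. For Sqstm1 it was -0.22 with a 95% interval of -0.42 to -0.01, for Tfeb -0.48 (-0.90 to -0.07) and for Mitf -0.32 (-0.59 to -0.06), the opposite sign, and none of the 4 held after adjustment. For Wipi2 it was 0.01 with an interval of -0.28 to 0.30.

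Other genes of the pathway were read from lists that hold no member. Of 35 tested other autophagy genes, 1 was called in M compared to control and 3 in LPS+M compared to LPS, all higher. Trp53inp1, which encodes a stress-induced protein that binds ATG8 proteins, rose by 1.19 ± 0.10 with menthol alone (M compared to control, adjusted p = 0.000365) and by 1.21 ± 0.10 with menthol before LPS (LPS+M compared to LPS, adjusted p = 0.000177). Atg101, a partner of ATG13 in the ULK1 complex, rose by 0.73 ± 0.12 in LPS+M compared to LPS (adjusted p = 0.00452). Wdr45, a relative of the WIPI genes, rose by 0.59 ± 0.10 there (adjusted p = 0.00489). Both were also higher in M than in control, without overlap of the arrays, but were not called in that comparison. The median of the list was 0.04 in M compared to control and 0.05 in LPS+M compared to LPS.

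Among 24 tested regulators of mTORC1, AMPK and the MiT factors, 2 were called higher and 1 lower in each of these comparisons. At the adjusted p alone, M cells had 8.33% of the list above control and 12.5% below it, against 13.1% and 8.63% of all genes. LPS+M cells had 12.5% of the list above LPS cells and 16.7% below them, against 17.3% and 11.4% of all genes. With 24 genes in the list, each of these shares rests on a few genes, and the difference from all genes was not tested. Ddit4, which encodes the mTORC1 inhibitor REDD1, had 9.14 and 9.12 in LPS+M, 9.19 and 9.21 in M, 6.05 and 6.04 in LPS, and 6.64 and 6.93 in control cells. The menthol arrays lay more than 2 log2 units above the others. It rose by 2.42 ± 0.09 with menthol alone (M compared to control, 5.33-fold, adjusted p = 2.66e-05) and by 3.08 ± 0.09 with menthol before LPS (LPS+M compared to LPS, 8.47-fold, adjusted p = 9.36e-06). In LPS cells it fell by 0.74 ± 0.09 relative to control (adjusted p = 0.00121). Sesn2, a stress-induced sestrin that restrains mTORC1, rose by 0.76 ± 0.15 with menthol alone (M compared to control, adjusted p = 0.0106) and by 1.48 ± 0.15 with menthol before LPS (LPS+M compared to LPS, adjusted p = 0.000531). Its relative Sesn1 fell by 0.70 ± 0.18 with menthol alone (M compared to control, adjusted p = 0.0318) and by 0.82 ± 0.18 with menthol before LPS (LPS+M compared to LPS, adjusted p = 0.0144). In a fit without the filter on low signal, Sesn1 was not called in these comparisons, nor Sesn2 in M. In LPS+M compared to M, Fnip2, which encodes a partner of folliculin, rose by 0.60 ± 0.11 (adjusted p = 0.0127).

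The other lysosomal lists gave no call with menthol. Of 32 tested other hydrolases and activators, 22 other membrane genes and 14 other V-ATPase subunits, 0 were called by limma, and 0 reached 1.5-fold, whether M was set against control or LPS+M against LPS. At the adjusted p alone, M cells had 6.25% of the hydrolases and activators higher and 6.25% lower than control cells. For membrane genes it was 9.09% and 4.55%, for V-ATPase subunits 0% and 0%, and for all genes 13.1% and 8.63%. Differences of the measured hydrolases and activators lay between -0.51 and 0.28 there. At an unadjusted limma p under 0.05, M cells had 3 hydrolases and activators higher and 3 lower. They also had 4 membrane genes higher and 1 lower, and no V-ATPase subunit. At that unadjusted p, LPS+M cells had 4 hydrolases and activators higher and 4 lower than LPS cells. They had 3 membrane genes higher and 1 lower, and 1 V-ATPase subunit higher and 2 lower. The share of all genes at that p was not counted. At the adjusted p alone, LPS+M compared to LPS gave 9.38% and 6.25% of hydrolases and activators and 13.6% and 4.55% of membrane genes. It gave 0% and 7.14% of V-ATPase subunits, against 17.3% and 11.4% of all genes. Differences of the measured hydrolases and activators lay between -0.55 and 0.27 there. With LPS alone, Ctsh, a cathepsin, rose by 0.62 ± 0.08 relative to control (adjusted p = 0.00129). Sgsh, a heparan sulfate sulfatase, fell by 0.92 ± 0.07 (adjusted p = 7.81e-05) and Pla2g15, a lysosomal phospholipase, fell by 0.62 ± 0.11 (adjusted p = 0.00505). Mcoln2, a relative of the calcium channel gene Mcoln1, rose by 0.96 ± 0.06 in LPS cells relative to control (adjusted p = 4.8e-05). It also rose by 0.75 ± 0.06 in LPS+M compared to M (adjusted p = 0.000234), while Mcoln1 itself differed by 0.07 and -0.04 in these comparisons.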

How the data were processed

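The authors made the deposited log2 values of 8 arrays, 2 per group, with GC-RMA (version 2.10.0, under version 2.6.1 of R), a method that corrects background by probe GC content, quantile normalizes and combines the probes of a set. No further scaling was applied. Of 45101 probe sets, 34945 carry 1 symbol, 932 several, 9160 none and 64 are controls. Each gene was represented by its single-symbol probe set of highest mean, and genes were tested where it exceeded 4.838, the average over probe sets. Other probe sets of a gene can differ from it, and some such values are given, from a fit over all 34945 probe sets with 1 symbol and no filter.

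All 8 arrays were fitted with limma 3.58.1 in R 4.3.3 (lmFit and eBayes, 4 residual and 3.778 prior degrees of freedom), with Benjamini-Hochberg adjustment over all tested genes. The fit was tested on simulated data. Calcoco1, under the filter, comes from the unfiltered fit. The number of arrays limits the precision. Per-array values are given for called members, the ATG8 genes and the MiT factors, and also for Uvrag, Atp6v1h and Ddit4, chosen after their values were seen. Of the other lists, up to 4 called genes were named. Members and lists were chosen with earlier results of these data known. Promoters are RefSeq windows of GRCm38.p6. Alternatives were other filters, probe set choices, scalings, tests, fold minimums, a replicate block and leaving out each array. LPS compared to M and LPS+M compared to control were not fitted.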

Additional observations from a re-analysis of the deposited data

How the results depend on the processing

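Counts of called members depended most on the fold minimum and the test. With no fold minimum, M cells had 14 called members and LPS cells 8 against control, and LPS+M cells had 17 against LPS and 5 against M. At a minimum of 2-fold, Wipi2 alone remained in M compared to control (1 gene) and in LPS+M compared to LPS (1 gene), and 0 members in LPS compared to control and in LPS+M compared to M. With the mean of all probe sets of a gene the count was 0 in LPS compared to control, 3 in LPS+M compared to LPS (Atg2a, Map1lc3a and Tfeb) and 1 in LPS+M compared to M. The methods' t-test without adjustment called 3 members in LPS+M compared to LPS and 1 in LPS+M compared to M. After Benjamini-Hochberg it called 0 members, and 0 of all genes, in all 4 comparisons, while without adjustment it called 254, 349, 288 and 217 of all genes, in the same order of comparisons. Leaving out 1 array at a time gave 3 to 5 members for M and 1 to 2 for LPS against control, 5 to 6 in LPS+M compared to LPS and 2 to 3 in LPS+M compared to M, where an arm with 1 array is assumed to vary like the others. The interaction called 0 members under every alternative. With the same median of the tested genes, an alternative added after the data were seen, the counts were 3, 1, 5 and 2. With the replicate number as a block, the called members were the same 4, 1, 6 and 2 genes, and no call changed. Arrays with the same number deviated together weakly (correlations of -0.0484 to 0.186 in the groups compared), which cannot show whether they share a culture or a batch. No called member changed direction under any alternative. Where a member was not called, its sign differed in 28 of the 943 values over all members and alternatives for M against control, and in 24 for LPS against control, 16 for LPS+M against LPS and 24 for LPS+M against M. Over all genes, the mean of all probe sets called 253 against 405 in M compared to control and 371 against 598 in LPS+M compared to LPS. No fold minimum gave 1934, 1935, 2560 and 1268 genes and a minimum of 2-fold 85, 184, 136 and 136. The interaction, called for 21 genes, gave 1 with no filter, 45 with trended and robust eBayes, 11 at 2-fold and 2 to 40 without 1 array. The cause of these differences was not tested.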
